A study of Mus musculus with 11 samples.

Results

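The cardiac myosin chains and the cardiac myosin binding protein were followed through 8 genes: the heavy chains Myh6, Myh7 and Myh3, the light chains Myl2, Myl3, Myl4 and Myl7, and Mybpc3. All probe sets of an Affymetrix Mouse 430 2.0 array that the platform annotation assigns to exactly 1 of these symbols were taken, which gave 12 probe sets of the 45037 that are not controls. A further 2 probe sets carry both Myh6 and Myh7 and were counted but not used. The probe sets were taken by gene symbol, whatever their values.

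Total RNA of 11 mouse samples was measured, 1 array each, all from cells of a background labelled C57/Bl and BlackSwiss mixed. The replicated groups were undifferentiated pluripotent cells induced from ventricular myocytes (ViPSC, 3 arrays), cells induced from fibroblasts of the tail tip (TiPSC, 3 arrays) and embryonic stem cells described as genetically matched (ESC, 3 arrays). Their sources, the ventricular myocytes (VM) and the tail tip fibroblasts (TTF), were taken from pups at postnatal day 1 and had 1 array each, so no comparison with them could be tested. The pluripotent cells were grown with LIF on irradiated fibroblast feeders, and a differential plating step to remove these feeders came before RNA extraction. The labels name no reprogramming factors, clone, or culture of origin for any induced array, and p-values therefore measure only the spread between these samples, which may be technical. Values are log2 RMA expression values, a scale on which a difference of 1 unit is 2-fold, and the median of an array lay between 4.67 and 4.77.

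In the sarcomere, myosin heavy chains form the thick filament and hydrolyse ATP, while an essential and a regulatory light chain wrap around the neck of each heavy chain. Myosin binding protein C lies along the thick filament and restrains its heads. The mouse heart switches isoforms with chamber and age: Myh6 encodes the fast alpha heavy chain of the adult heart, Myh7 the slow beta chain that prevails in the ventricle before birth, Myl2 and Myl3 the regulatory and essential light chains of the ventricle, and Myl7 and Myl4 their atrial counterparts, with Myl4 also present in the embryonic ventricle. Myh3 encodes the embryonic heavy chain of skeletal muscle.

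Myh6 (chr14:54941921-54968017) and Myh7 (chr14:54970684-54994626) are neighbours in the genome. Each carries a microRNA gene within its span, and so does Myh7b, another slow-type heavy chain gene. Their mature sequences are shown because the levels of these 3 host genes are described below, and the seed, bases 2 to 8, is in capitals (RefSeq, GRCm38.p6, minus strand for chr14 and plus strand for chr2).
mmu-miR-208a-3p, in Myh6, chr14:54949072-54949093: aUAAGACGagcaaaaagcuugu
mmu-miR-208b-3p, in Myh7, chr14:54975710-54975731: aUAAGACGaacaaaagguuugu
mmu-miR-499-5p, in Myh7b, chr2:155622893-155622913: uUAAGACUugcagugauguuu
The miR-208 pair shares its seed and differs over 22 bases by the substitutions G10A, A16G and C18U, counted from the 5′ end of miR-208a-3p. The miR-499-5p seed was a different one, UAAGACU against UAAGACG. The arrays described here measured the host genes, not the mature microRNAs.

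The windows of 250 bases before the annotated starts of 3 light chain genes, of which Myl2 has 2 starts, are shown (RefSeq, GRCm38.p6, 5′ to 3′ on the gene's strand). These genes were all high in VM, and each window shown holds a match to a searched motif. Capitals mark the matches listed after them.
Myl3, chr9:110763428-110763677, plus strand: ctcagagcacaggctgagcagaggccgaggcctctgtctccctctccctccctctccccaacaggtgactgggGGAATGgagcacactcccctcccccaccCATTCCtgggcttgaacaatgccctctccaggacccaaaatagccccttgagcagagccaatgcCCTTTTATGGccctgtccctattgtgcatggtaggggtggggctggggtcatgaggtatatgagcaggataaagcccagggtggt
Myl7, chr11:5898783-5899032, minus strand: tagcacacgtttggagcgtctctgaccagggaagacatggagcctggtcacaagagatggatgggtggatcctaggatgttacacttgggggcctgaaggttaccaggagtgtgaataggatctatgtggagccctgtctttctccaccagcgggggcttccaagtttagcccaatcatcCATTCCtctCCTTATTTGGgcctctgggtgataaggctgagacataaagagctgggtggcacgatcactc
Myl2, chr5:122092474-122092723, plus strand: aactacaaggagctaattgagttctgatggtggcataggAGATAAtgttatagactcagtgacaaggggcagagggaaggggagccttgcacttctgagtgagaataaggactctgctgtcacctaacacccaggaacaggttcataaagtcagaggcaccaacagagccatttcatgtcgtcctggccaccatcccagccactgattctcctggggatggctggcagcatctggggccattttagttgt
Myl2, chr5:122092939-122093188, plus strand: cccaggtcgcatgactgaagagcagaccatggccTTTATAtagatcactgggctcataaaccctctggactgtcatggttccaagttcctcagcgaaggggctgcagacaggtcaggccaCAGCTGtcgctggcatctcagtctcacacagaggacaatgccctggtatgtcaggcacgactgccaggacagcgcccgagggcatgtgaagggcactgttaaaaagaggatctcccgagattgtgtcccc
The capitals mark, in Myl3, the MCAT motif CATTCC on each strand and a CArG box, in Myl7 an MCAT motif and a CArG box, in the first Myl2 window the GATA motif AGATAA, and in the second the E-box CAGCTG and TATAAA, read on the opposite strand. MCAT is the element that TEAD factors bind, and the CArG box is bound by serum response factor. The member genes had 10 annotated promoter windows, and both strands were searched for 7 motifs. MCAT lay in 4 of the 10 member windows (Myl3, Myl7, Myh6, Myh7) and in 12.6% of 32851 mouse promoter windows of this length, and the CArG box lay in 2 member windows and in 1.47% of all. GATA lay in 1 member window against 9.99% of all windows, the E-box CAGCTG in 2 (Myl2, Mybpc3) against 13.0%, the MEF2 site in 1 (Mybpc3) against 2.92%, TATAAA in 2 (Myl2, Myh3) against 12.4%, and the NKE motif CACTTGA in none against 2.68%. The CArG box lay 85 to 76 bases before the start in Myl3 and 61 to 52 bases before it in Myl7. The window of Myl4, the remaining light chain gene and also high in VM, held none of the 7 motifs and is not shown. The Mybpc3 E-box and MEF2 site did not overlap each other, nor did MCAT and the CArG box in Myl3 or Myl7. Such a match is a description of the letters and not evidence of binding.

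Some arrays stood apart over the whole genome. ESC replicate 1 correlated more closely with the induced arrays (0.992 to 0.993) than with the other ESC arrays (0.989 and 0.986). Genes of chromosome 11, where Myl4, Myl7 and Myh3 lie, were as a whole higher in the ViPSC arrays and in ESC replicate 3 than in the other pluripotent arrays, and those of chromosome 8, where no member lies, were higher in TiPSC replicate 3. Results that turn on these arrays are given with and without them.

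The ventricular myocyte array stood far above every other array for Myh6, Myh7, Myl2, Myl3 and Mybpc3, and by less for Myl7 and Myl4. Of the 12 member probe sets, 10 had a VM value at least 2 log2 units above that of TTF, against 3.34% of all probe sets, and none was at least 2 units lower, against 3.26%. The median difference of VM minus TTF was 8.05 over the 12 probe sets and 0.0046 over all probe sets. The exceptions were the weaker probe set of Myl4 and the probe set of Myh3. VM and TTF had 1 array each, so these differences have no replicate check. No detection calls were used, and values below the median of an array may be background, where RMA compresses differences; a difference from such a value is one of RMA values and may understate the change. In such bulk RNA fewer cells of a type cannot be told apart from less RNA per cell.

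Both cardiac heavy chains were high in VM. Myh6, the alpha chain, read 14.90 in VM and 2.89 in TTF (probe set 1448826_at). In the pluripotent arrays it read 4.15, 4.13 and 4.15 in ViPSC, 4.24, 3.81 and 4.22 in TiPSC, and 4.15, 4.04 and 4.16 in ESC. The VM value was 12.00 units above TTF and 10.66 above the highest of the other 10 arrays, while the pluripotent arrays spanned only 0.43 units, and TTF was the lowest of all. The second Myh6 probe set (1417729_at) read 7.35 in VM and between 2.79 and 3.12 in all other arrays, a difference of 4.44 from TTF. The 2 Myh6 probe sets thus gave the same direction with very different sizes. Myh7, the beta chain, read 10.99 in VM and 3.61 in TTF (1448553_at). It read 3.73, 3.83 and 3.60 in ViPSC, 3.89, 3.79 and 4.04 in TiPSC, and 3.77, 3.88 and 3.89 in ESC. The VM value of Myh7 exceeded TTF by 7.38, and the other 10 arrays overlapped in a range near the bottom of the scale. The 2 probe sets shared by Myh6 and Myh7 read 14.88 and 9.33 in VM against 4.80 and 4.04 in TTF, and they cannot be assigned to either gene.

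The ventricular light chains were the next to be high in VM alone. Myl2, the ventricular regulatory chain, read 15.02 in VM and 3.96 in TTF (1448394_at), a difference of 11.06. It read 4.06, 4.03 and 4.17 in ViPSC, 4.02, 3.89 and 3.58 in TiPSC, and 4.002, 4.002 and 4.14 in ESC. No pluripotent array was within 10.85 units of VM, and the TTF array lay inside the TiPSC range. Myl3, the ventricular essential chain, was measured by 3 probe sets that read 14.48, 14.12 and 14.46 in VM and 5.77, 4.88 and 3.70 in TTF. Their VM minus TTF differences were 8.71, 9.24 and 10.76 (1428266_at, 1427769_x_at and 1427768_s_at). In the pluripotent arrays these probe sets were less flat than those of Myl2, as described further on.

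The atrial light chains were also higher in VM than in any other array. Myl7, the atrial regulatory chain, read 10.47 in VM and 4.44 in TTF (1449071_at), a difference of 6.04. It read 6.86, 6.77 and 6.86 in ViPSC, 6.65, 6.48 and 6.21 in TiPSC, and 6.51, 7.55 and 7.18 in ESC. All 9 pluripotent arrays lay between the source arrays, at least 1.77 units above TTF for TiPSC and at least 3.61 below VM for ViPSC. Myl4, the atrial and embryonic essential chain, read 9.999 in VM and 6.27 in TTF (1422580_at), a difference of 3.73. The ViPSC arrays read 7.82, 7.48 and 7.65, the TiPSC arrays 6.12, 6.48 and 6.05, and the ESC arrays 6.40, 6.56 and 7.26. VM was 2.18 units above the highest ViPSC array, and TTF lay inside the TiPSC range. The second Myl4 probe set (1457126_at) did not show this pattern: it read 5.47 in VM, 5.02 in TTF and between 4.99 and 5.30 in the pluripotent arrays, with an identical value of 5.09 in 5 arrays.

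Mybpc3, the cardiac myosin binding protein C, read 13.10 in VM and 4.28 in TTF (1418551_at), a difference of 8.82. It read 4.34, 4.18 and 4.71 in ViPSC, 4.19, 4.66 and 4.64 in TiPSC, and 4.35, 4.75 and 5.02 in ESC. Myh3, the embryonic skeletal heavy chain, was the only member for which VM was not the highest array. It read 5.49 in VM and 4.26 in TTF (1427115_at), 6.56, 6.59 and 6.96 in ViPSC, 5.37, 5.50 and 5.45 in TiPSC, and 5.15, 5.62 and 7.11 in ESC. The highest Myh3 value, in ESC replicate 3, was 1.62 units above VM, and all 3 ViPSC arrays were 1.07 to 1.46 units above VM.

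**Figure D1:**
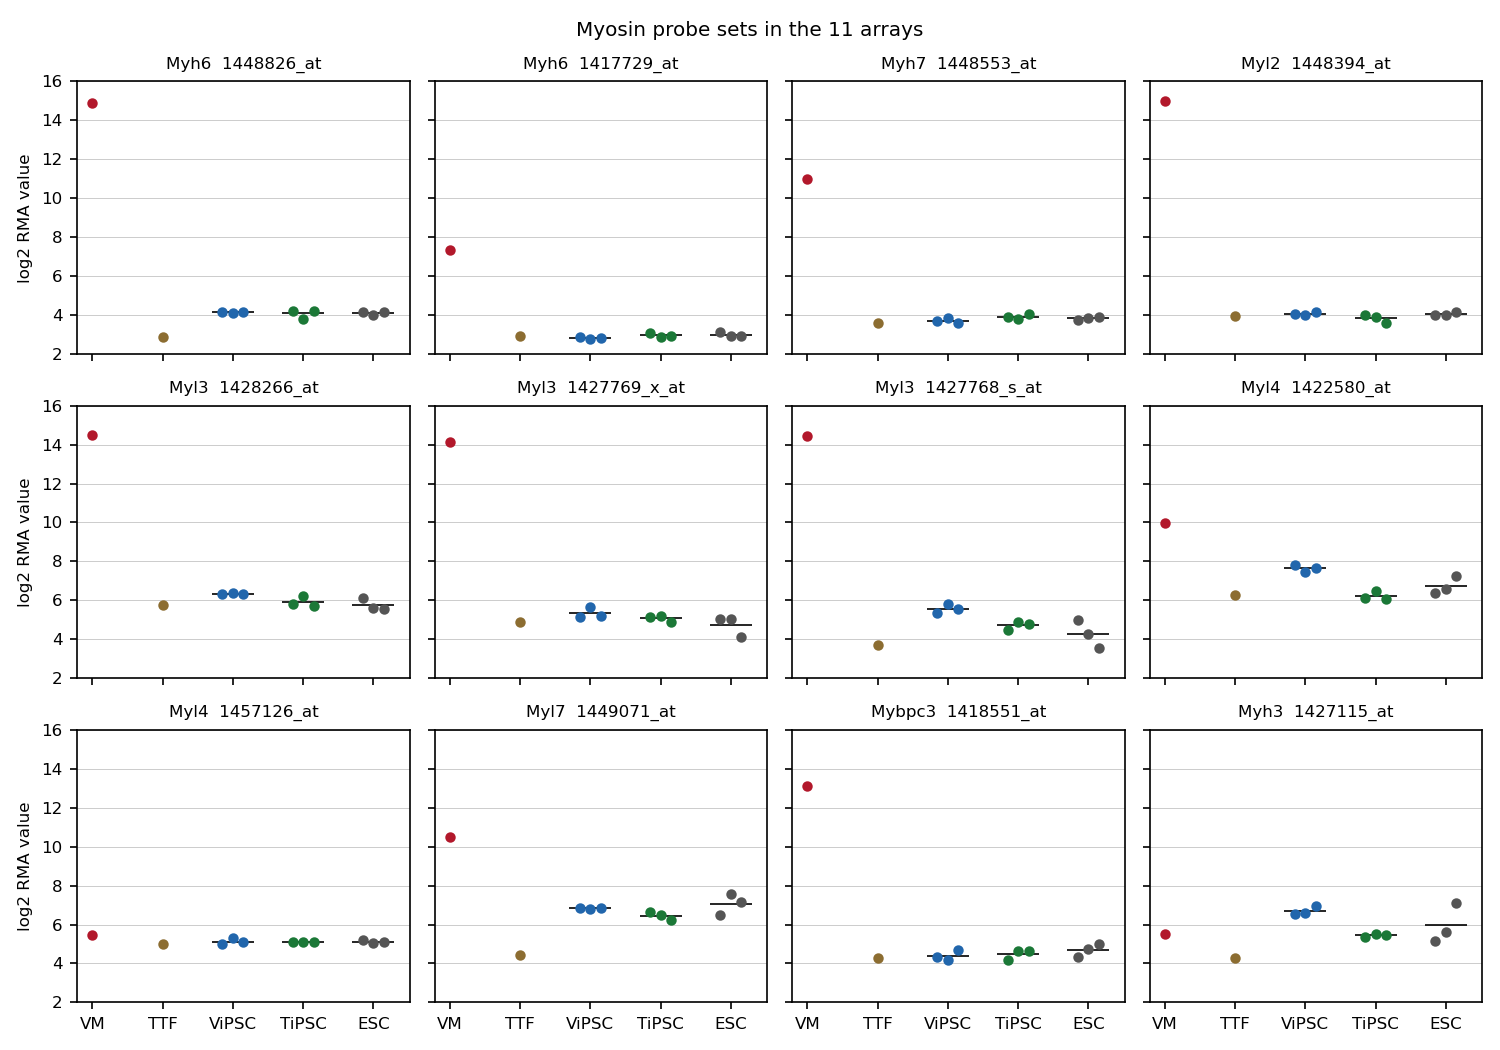
Log2 RMA value of each of the 12 member probe sets (vertical axis) in the 11 arrays, 1 point an array, with a line at the mean of each group of 3. VM is the highest array in every panel except that of Myh3, where ESC replicate 3 at 7.11 is highest, and Myl4 1457126_at shows nearly the same value in all arrays.

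The group orders of the main probe sets can be read from means and SDs of 3 arrays. For Myl4 (1422580_at) the order was VM at 9.999, ViPSC at 7.65 ± 0.17 (SD, n = 3), ESC at 6.74 ± 0.46, TTF at 6.27 and TiPSC at 6.22 ± 0.23. The ESC and TiPSC arrays overlapped, and TTF lay inside the TiPSC range. For Myl7 it was VM at 10.47, ESC at 7.08 ± 0.53, ViPSC at 6.83 ± 0.050, TiPSC at 6.44 ± 0.22 and TTF at 4.44, and the ESC range enclosed the ViPSC arrays. For Myh3 it was ViPSC at 6.70 ± 0.22, ESC at 5.96 ± 1.02, VM at 5.49, TiPSC at 5.44 ± 0.066 and TTF at 4.26. VM lay inside the TiPSC range of Myh3, and the ESC range enclosed all ViPSC and TiPSC arrays. For Myl3 (1428266_at) it was VM at 14.48, ViPSC at 6.33 ± 0.033, TiPSC at 5.92 ± 0.25, and ESC (5.77 ± 0.32) level with TTF (5.77), and only the VM and ViPSC arrays lay clear of the groups after them. For Myh6 (1448826_at), Myh7 and Mybpc3 the pluripotent groups overlapped in every pair, and for Myl2 they overlapped except that the ViPSC arrays were all above those of TiPSC.

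Most member probe sets were far lower in the cells induced from myocytes than in the myocytes. Of the 12 probe sets, 10 were at least 2 units lower in all 3 ViPSC arrays than in VM, against 4.86% of all probe sets, and none was at least 2 units higher, against 4.21%. The mean ViPSC minus VM difference was -10.75 for Myh6 (1448826_at), -7.27 for Myh7, -10.93 for Myl2 and -8.70 for Mybpc3. It was -8.15, -8.78 and -8.89 for the Myl3 probe sets, -3.64 for Myl7 and -2.35 for Myl4 (1422580_at). Of these, the atrial chains had the smallest differences. Their ViPSC arrays stayed above the array median, as did those of every probe set of the ventricular chain Myl3. Myh3 went the other way, with a ViPSC mean 1.21 units above VM.

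For no member did all 3 arrays of the fibroblast-derived cells differ from their source by 2 units. None of the 12 probe sets was at least 2 units higher in all 3 TiPSC arrays than in TTF, against 2.99% of all probe sets, and none was at least 2 units lower, against 4.45%. TTF lay below the median of its array for 8 of the 12 probe sets, which left little or no room for a fall of 2 units, so this count cannot be set against that of ViPSC and VM. Myl7 came nearest, with a mean TiPSC minus TTF difference of 2.01 and a range of 1.77 to 2.21. Myh3 was 1.18 units higher, and for both genes all 3 TiPSC arrays were above TTF. Myh6 (1448826_at) and Myl3 (1427768_s_at) read 1.20 and 1.04 units higher, from TTF values below the array median, and the second Myh6 probe set differed by 0.055.

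**Figure D2:**
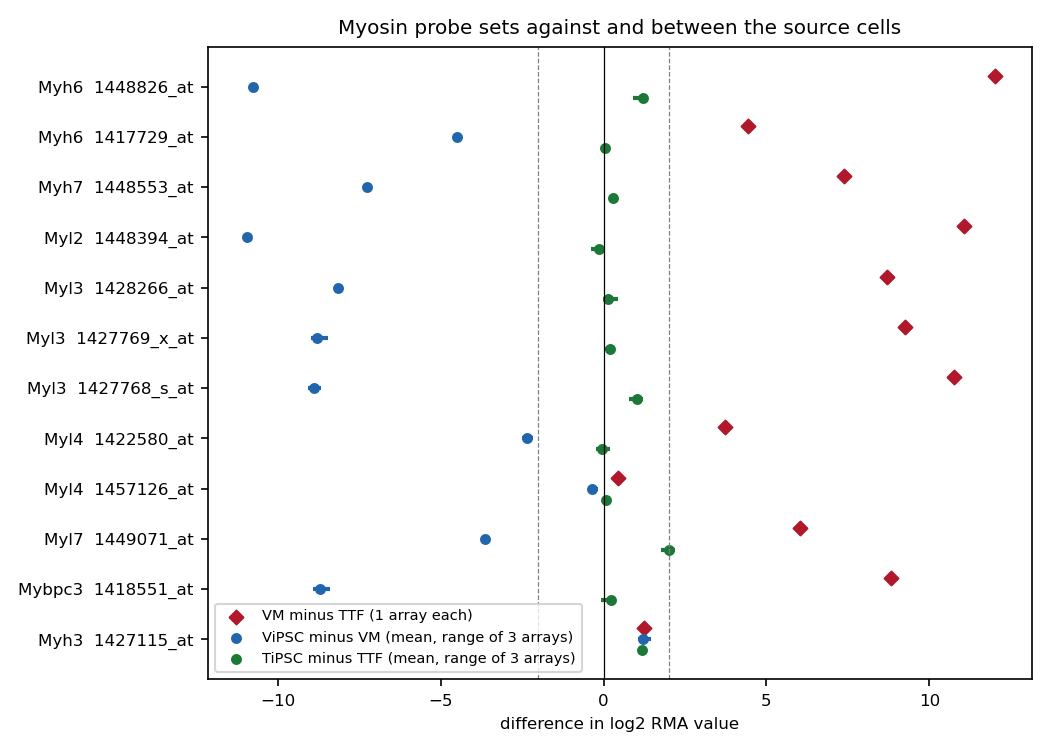
Differences in log2 RMA value (horizontal axis) for the 12 member probe sets: VM minus TTF (diamonds, 1 array each), and ViPSC minus VM and TiPSC minus TTF (circles at the mean, with bars over the range of the 3 induced arrays). Dashed lines lie 2 units from 0. All members except Myh3 and Myl4 1457126_at show VM minus TTF beyond the upper line and ViPSC minus VM beyond the lower one.

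Among the pluripotent groups, Myl4 was the only member that passed the test, and it was higher in the myocyte-derived cells. Differences were tested with limma over all 45037 probe sets and the 9 pluripotent arrays, with Benjamini-Hochberg adjustment, and passed at an adjusted p under 0.05. Of the 12 member probe sets, 1 passed in ViPSC against TiPSC, where 3.91% of all probe sets passed in either direction and 2.4% passed as higher in ViPSC. The probe set 1422580_at of Myl4 was 1.44 ± 0.21 log2 units (SE) higher in ViPSC, a 2.70-fold difference, with a 95% interval of 0.96 to 1.91 and a limma adjusted p of 0.00994. All 3 ViPSC arrays were above all 3 TiPSC arrays. Its call depended on single arrays: the adjusted p rose to 0.0512 without ViPSC replicate 1, 0.0543 without ViPSC replicate 3 and 0.0534 without TiPSC replicate 1, at differences of 1.35, 1.44 and 1.39. The other Myl4 probe set differed by 0.036 ± 0.094 with an adjusted p of 0.896, so the 2 probe sets of this gene disagree.

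No other member passed in ViPSC against TiPSC, although several groups of arrays did not overlap. Myh3 was 1.26 ± 0.40 units higher in ViPSC, with an interval of 0.37 to 2.16 and an adjusted p of 0.126. Since the fit shares its spread with ESC, the ESC arrays bear on this p: without ESC replicate 3 the adjusted p was 0.00315 at the same difference of 1.26, and without ESC replicate 1 it was 0.0461. Myh3 passed under only these 2 of the 9 single-array omissions, and its adjusted p rose to as much as 0.337 under the others. The Myl3 probe set 1427768_s_at read 5.38, 5.80 and 5.54 in ViPSC, 4.49, 4.90 and 4.81 in TiPSC, and 4.99, 4.26 and 3.57 in ESC. Its ViPSC minus TiPSC difference was 0.84 ± 0.30 with an adjusted p of 0.171, which became 0.0347 without ESC replicate 1 and 0.0438 without ESC replicate 3. It too passed under only these 2 of the 9 single-array omissions, and its adjusted p rose to as much as 0.39 under the others. The Myl3 probe set 1428266_at read 6.32, 6.37 and 6.31 in ViPSC, 5.82, 6.20 and 5.74 in TiPSC, and 6.13, 5.61 and 5.56 in ESC, and differed by 0.41 ± 0.17 (adjusted p = 0.223). The third, 1427769_x_at, read 5.15, 5.67 and 5.20 in ViPSC, 5.12, 5.20 and 4.91 in TiPSC, and 5.04, 5.04 and 4.14 in ESC, and differed by 0.26 ± 0.24 (adjusted p = 0.643).

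The remaining differences were small. Myl7 gave 0.39 ± 0.23 with an interval of -0.12 to 0.89 and an adjusted p of 0.421, and Myl2 gave 0.26 ± 0.12 with an interval of -0.0038 to 0.51 and an adjusted p of 0.285. Myh7 gave -0.19 ± 0.096 with an adjusted p of 0.350. Myh6 gave 0.057 and -0.13 for its 2 probe sets, and Mybpc3 gave -0.087. For 7 of the 12 probe sets no array of either group lay inside the other group's range, against 28.2% of all probe sets, and for 6 of these all ViPSC arrays were the higher ones, against 13.1%. Some gaps were very small and below the array median. For Myl2 the lowest ViPSC array read 4.03 and the highest TiPSC array 4.02. For Myh6 (1417729_at) the highest ViPSC array read 2.877 and the lowest TiPSC array 2.886. The Myl3 probe sets 1427768_s_at and 1428266_at measure the same gene. The median difference was 0.26 over the 12 probe sets and -0.022 over all probe sets. An unadjusted p under 0.05 was reached by 4 of the 12 probe sets and by 18% of all probe sets. These were 1422580_at of Myl4, that of Myh3, and 1427768_s_at and 1428266_at of Myl3. Without TiPSC replicate 3 the Myl2 difference fell to 0.13 (adjusted p = 0.548).

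In ViPSC against ESC, 0 of the 12 member probe sets passed, where 1.22% of all probe sets did. An unadjusted limma p under 0.05 was reached by 4, all 3 of Myl3 and 1422580_at of Myl4, and by 14.6% of all probe sets. The largest differences were those of Myl3 at 1.30 ± 0.30 (1427768_s_at, adjusted p = 0.0761) and of Myl4 at 0.91 ± 0.21 (1422580_at, adjusted p = 0.0804), both higher in ViPSC. Without ESC replicate 3 the Myl4 difference was 1.17 (adjusted p = 0.0142), and that of Myh3 rose from 0.74 ± 0.40 (adjusted p = 0.446) to 1.32 (adjusted p = 0.0126); without ESC replicate 1 the Myh3 difference was instead 0.33 (adjusted p = 0.671). Without ESC replicate 1, the Myl3 probe sets 1427768_s_at and 1428266_at gave 1.66 (adjusted p = 0.00235) and 0.75 (adjusted p = 0.0109), against 0.57 ± 0.17 (adjusted p = 0.146) for the latter with all arrays. Myl4 (1422580_at), Myh3 and these Myl3 probe sets each passed under only 1 of the 9 single-array omissions. Myl7 gave -0.25 ± 0.23, with ESC the higher group, and an adjusted p of 0.690, and this value turned on single ESC arrays: it was -0.53 (adjusted p = 0.0626) without ESC replicate 1 and -0.011 (adjusted p = 0.991) without ESC replicate 2. The groups did not overlap for 5 of the 12 probe sets, against 18.8% of all probe sets, and ViPSC was the higher for 4, against 9.52%. These 4 were all 3 of Myl3 and 1422580_at of Myl4, and the other was 1417729_at of Myh6, so they come from few genes. The median over the 12 probe sets was 0.033, beside -0.0058 over all probe sets.

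In TiPSC against ESC, 0 of the 12 member probe sets passed, where 0.213% of all probe sets did. An unadjusted limma p under 0.05 was reached by 2, namely Myl7 and Myl4 (1422580_at), and by 14.7% of all probe sets. Myl7 was lower in TiPSC, at -0.63 ± 0.23 (adjusted p = 0.244), and Myl4 at -0.53 ± 0.21 (adjusted p = 0.298). The Myl4 difference ranged from -0.69 without ESC replicate 1 to -0.27 without ESC replicate 3, and that of Myl7 was -0.40 without ESC replicate 2. Without ESC replicate 1, Myl7 passed at -0.92 (adjusted p = 0.00625) and Myl3 (1427768_s_at) passed at 0.82 (adjusted p = 0.0440). Each passed under only this 1 of the 9 single-array omissions. No member had groups that did not overlap, against 14.2% of all probe sets, and the median was -0.025 beside 0.012. The 3 comparisons share their arrays in pairs, so their values are not independent of each other.

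**Figure D3:**
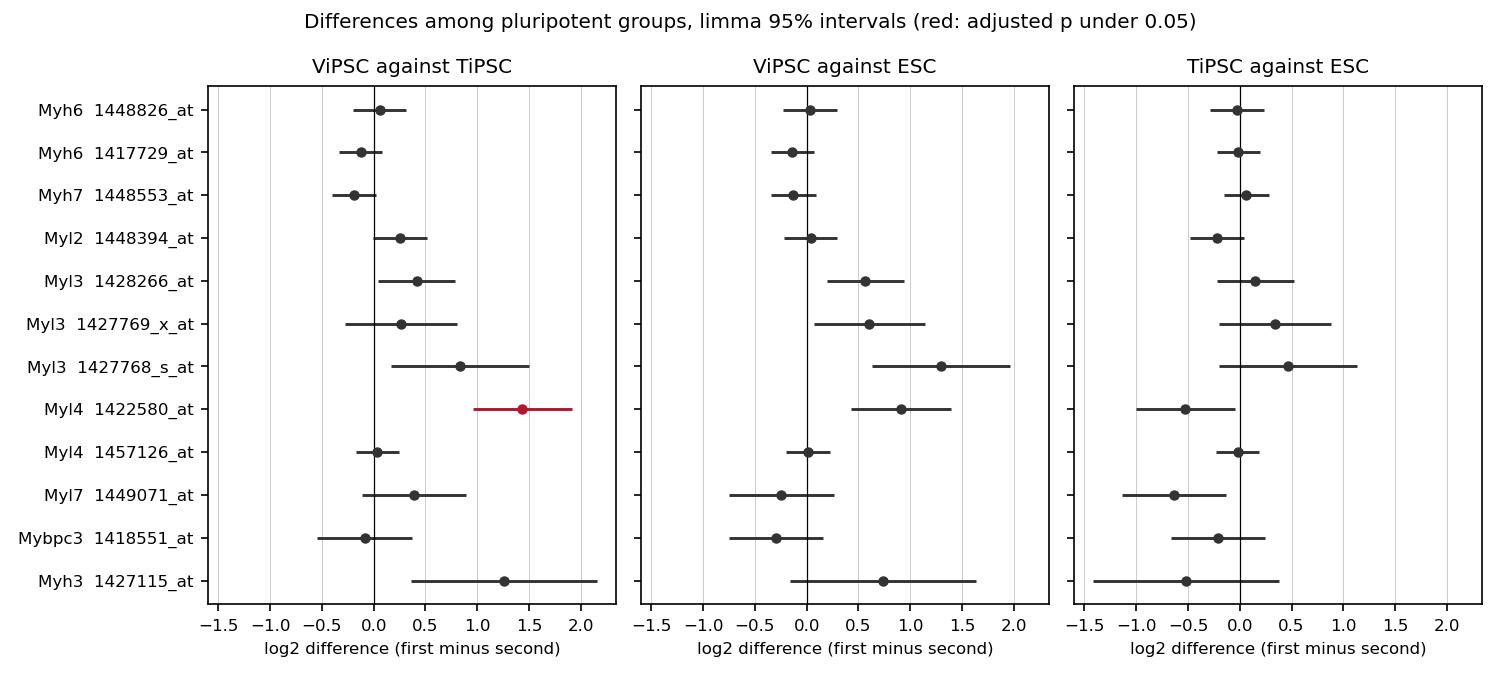
Differences in log2 RMA value (horizontal axis) between the pluripotent groups for each member probe set, with limma 95% intervals over the 9 arrays. The only point in red, with an adjusted p under 0.05, is Myl4 1422580_at in ViPSC against TiPSC at 1.44, and the widest intervals are those of Myh3.

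The ESC arrays were not alike for these genes. Myh3 stood at 7.11 in ESC replicate 3 and at 5.15 and 5.62 in the others, and Myl4 at 7.26 against 6.40 and 6.56. Myl7 was instead higher in ESC replicates 2 and 3, at 7.55 and 7.18, than in replicate 1 at 6.51. Myl3 (1427768_s_at) was highest in replicate 1 at 4.99, with 4.26 in replicate 2 and 3.57 in replicate 3.

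The deviation of chromosome 11 was measured array by array. Myl4 (chr11:104546017-104587215), Myh3 (chr11:67078273-67102291) and Myl7 (chr11:5896637-5898782) lie there. Over 1011 chromosome 11 probe sets whose mean in the pluripotent arrays reached 7, the median deviation of an array from the mean of the 9 was 0.26 in each ViPSC array and 0.20 in ESC replicate 3. It was -0.19 in each TiPSC array, -0.17 in ESC replicate 1 and -0.20 in ESC replicate 2. The medians of chromosomes 2, 5, 9 and 14, where the other members lie, stayed within 0.036 of 0 in every pluripotent array.

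The chromosome 11 median was 0.44 units higher in ViPSC than in TiPSC and 0.36 higher than in ESC. Less this shift, the ViPSC minus TiPSC difference was 0.99 for Myl4 (1422580_at), 0.82 for Myh3, -0.056 for Myl7 and -0.41 for the flat Myl4 probe set 1457126_at. Against ESC it was 0.55 for Myl4, 0.38 for Myh3 and -0.61 for Myl7. Of 2724 chromosome 11 probe sets, 402 (14.8%) passed as higher in ViPSC than in TiPSC, against 531 of 32017 (1.66%) on other chromosomes. Myl4 and Myh3 were high in the same 4 arrays as the chromosome, with differences larger than its median. Myl7 differed between ViPSC and TiPSC by about the chromosome's median (0.39 against 0.44), but its highest array was ESC replicate 2, where the chromosome was low. The second Myl4 probe set did not move with the chromosome. The part of this shift in the Myl4 call was not tested.

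**Figure D4:**
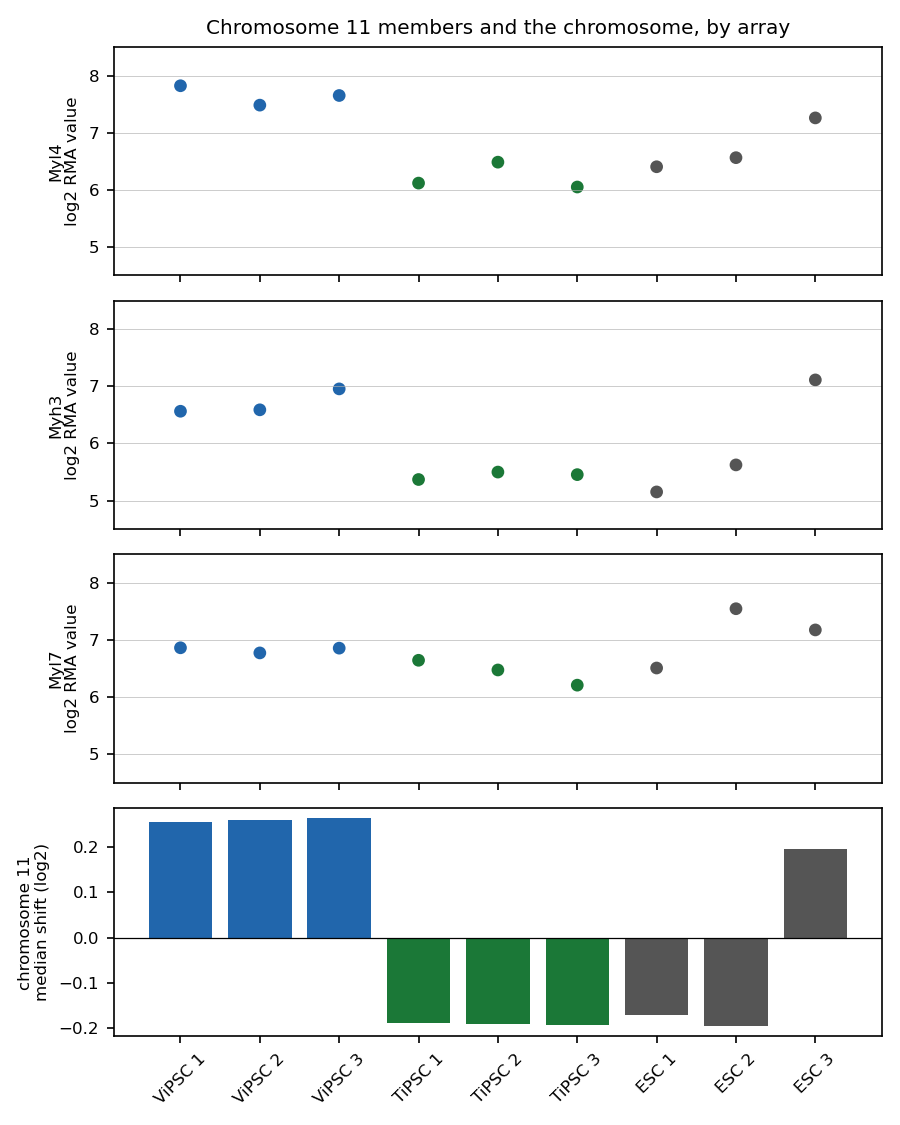
Log2 RMA values of Myl4 (1422580_at), Myh3 and Myl7 in the 9 pluripotent arrays (points, upper 3 panels) and the median log2 deviation of 1011 expressed chromosome 11 probe sets from the mean of those arrays (bars, lowest panel). The bars are positive for the 3 ViPSC arrays and ESC replicate 3, the arrays with the highest Myl4 and Myh3 values, and negative for the other 5 arrays.

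The genes whose pattern lay nearest to each member were found by the root mean square difference in log2 value over the 11 arrays, after each gene was centred on its mean. For Myl2 the nearest was Tnnt2, cardiac troponin T, at 0.13, followed by Smpx and Tnni1. For Myh6 they were Tnnt2 at 0.38, Myl2 and Mb, for Myl3 (1428266_at) Myoz2 at 0.19, Cdh5 and Cox8b, and for Myh7 Cox6a2 at 0.14, Lmod2 and Tcap. For Mybpc3 they were Cox8b at 0.23, Ckm and Csrp3. These 5 members are high in 1 array, so likeness over the 11 arrays is mainly likeness in the size of the VM value. The chromosome 11 members had no such neighbours: for Myl7 they were Cidea at 0.40, Acacb and Tesc, for Myl4 Selenbp1 at 0.29, Aldh1b1 and Igtp, and for Myh3 Pex13 at 0.39, Mrps24 and 1700042O10Rik, all 3 on chromosome 11. Over the 9 pluripotent arrays, Myl4 was nearest to Ddc at 0.12, Copz2 at 0.15 and 1700042O10Rik at 0.17, also all on chromosome 11. Of 18031 genes with a known chromosome, 1443 (8.0%) lie on chromosome 11.

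Few other myosin genes of striated muscle were high in VM. Of 13 listed chains and binding proteins, 11 were measured, with 1 probe set each, the brightest. Only Myl1 at 7.08 against 3.18, a fast essential light chain, and Myh7b at 6.82 against 3.49 were at least 2 units above TTF in VM. The adult fast skeletal heavy chains Myh1, Myh2 and Myh4 read between 2.87 and 3.96 in all 11 arrays. Mylpf, the fast skeletal regulatory light chain, was at least 2 units higher in ViPSC than in VM and in TiPSC than in TTF: its mean was 11.37 ± 0.045 (SD, n = 3) in ViPSC, 11.30 ± 0.34 in TiPSC and 11.18 ± 0.16 in ESC, against 5.52 in TTF and 5.96 in VM. None of the 11 passed in any comparison of the pluripotent groups in limma, and 2, 2 and 1 had an unadjusted p under 0.05 in the order in which the comparisons were given above. Over all probe sets 18%, 14.6% and 14.7% had such a p, and these shares apply to each list count of this kind that follows. The 9 smooth and nonmuscle chains held no gene at least 2 units apart between VM and TTF, and none passed among the pluripotent groups, with 3, 4 and 4 at an unadjusted p under 0.05. Myh9, a nonmuscle heavy chain, read 11.62 to 12.09 in the pluripotent arrays, 13.25 in TTF and 12.24 in VM.

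Some of the genes that act on myosin were high in VM. Of 13 measured kinases, phosphatase subunits, chaperones and turnover genes, 6 were at least 2 units above TTF in VM and none was as far below, although Mylk, the smooth muscle type kinase, gave -1.99 for VM minus TTF. Unc45b, a myosin chaperone, differed by 7.93 units, Trim63, a ubiquitin ligase of the sarcomere, by 7.49, Mylk3, the cardiac myosin light chain kinase, by 6.26, and Smyd1, a muscle methyltransferase, by 5.98. All 18 listed regulators of cardiac myosin genes were measured, and 6 were at least 2 units higher in VM, led by Nkx2-5 (4.81), Gata4 (4.18), Irx4 (3.998) and Mef2c (3.09). Nr2f1 and Nr2f2, factors of atrial identity, gave -1.63 and -1.35. Nr2f1 read 3.31 in VM and 4.94 in TTF. Nr2f2 read 7.91 in VM and 9.26 in TTF, against 4.69 to 5.30 in the pluripotent arrays, so its VM value was lower only than that of TTF. None of these genes passed among the pluripotent groups in limma. Of the kinase and chaperone list, 3, 2 and 1 had an unadjusted p under 0.05 in the 3 comparisons, and of the regulators 4, 1 and 0.

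Markers of several other cell types also differed between VM and TTF. Of 10 cardiomyocyte markers, 9 exceeded TTF by at least 2 units in VM. Tnnt2, Mb, Tnni3 and Actc1 did so by 10.94, 10.52, 9.91 and 9.74. The exception was Atp2a2, whose brightest probe set read 11.91 to 12.36 in all 11 arrays. Atp2a2 has 6 probe sets and its others were not compared, so this flat reading holds for that probe set only. Of 8 ventricular markers, 5 were higher, including Pln (9.70), Kcnip2 (4.21) and Irx4 beside the members Myl2 and Myl3. Of 11 atrial markers, 5 were higher and 1, Dkk3, was lower at -3.66. Beside the members Myl4 and Myl7, these were Nppa at 12.15 in VM and 3.82 in TTF, Kcna5 at 6.92 and 3.40, and Sln at 5.85 and 3.62, while Bmp10 read 4.86 in VM and 5.06 in TTF. All 8 endothelial markers were at least 2 units higher in VM, led by Cdh5 (7.89) and Emcn (7.78). The fibroblast list had a median of 9.98 in VM and 13.40 in TTF, and 7 of its 10 genes were at least 2 units lower in VM, led by S100a4 (-7.67) and Thy1 (-6.80). Of 6 smooth muscle markers none was higher in VM by 2 units and 2 were lower, and of 6 measured blood markers 1, Alas2, was higher and 1, Lyz2, lower. The part of atrial cells in the VM levels of Myl4 and Myl7 was not tested.

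Few of these markers passed the test among the pluripotent groups. Of the cardiomyocyte markers none passed in limma in any comparison, with 2, 5 and 3 at an unadjusted p under 0.05, and Tnnt2 read 3.20 to 3.60 in all 9 arrays. Actn2 on chromosome 13, the alpha-actinin of the cardiac Z-disc, was the exception in size: it read 6.18, 6.54 and 6.35 in ViPSC, 4.84, 5.10 and 4.95 in TiPSC, and 4.55, 5.47 and 6.33 in ESC. Its ViPSC minus TiPSC difference of 1.39 ± 0.35 (limma adjusted p = 0.0620) was near that of Myl4, and its 4 highest pluripotent arrays were the same as for Myl4. Of the 11 atrial markers only Myl4 passed, with 1, 2 and 2 at an unadjusted p under 0.05, and Nppa read 3.57 to 3.96. Of the 8 ventricular markers, Myl2 and Myl3 among them, none passed, with 3, 2 and 1 at an unadjusted p under 0.05. Of 8 endothelial markers, 2 passed as higher in ViPSC than in TiPSC, with 3, 3 and 2 at an unadjusted p under 0.05. They were Pecam1 (chromosome 11, 1.33 ± 0.21, adjusted p = 0.0126) and Cldn5 (chromosome 16, 1.03 ± 0.13, adjusted p = 0.00564). Cldn5 passed against ESC too (1.08 ± 0.13, adjusted p = 0.0116), while Cdh5 read 3.58 to 3.86. Of 6 measured blood markers, 2 passed as higher in ViPSC than in TiPSC, with 2, 2 and 1 at an unadjusted p under 0.05. These were the macrophage markers Cd68 (chromosome 11, 1.37 ± 0.27, adjusted p = 0.0276) and Csf1r (chromosome 18, 1.54 ± 0.29, adjusted p = 0.0230). Lyz2 of the same list was lower in ViPSC than in TiPSC (-0.38 ± 0.20, limma adjusted p = 0.375), and Ptprc read 3.44 to 3.82. Of 6 smooth muscle markers none passed, with 2, 2 and 3 at an unadjusted p under 0.05. Of the fibroblast list, which feeder cells would also carry, none passed, with 5, 0 and 6 at an unadjusted p under 0.05, and the 5 were lower in ViPSC than in TiPSC. The list's median was 6.19 to 6.31 in ViPSC, 6.49 to 7.18 in TiPSC and 6.14 to 6.36 in ESC, against 13.40 in TTF, and that of the endothelial list was 5.54 to 5.68, 4.66 to 5.07 and 4.81 to 5.02, against 10.30 in VM. The part of these cell types in the Myl4 difference was not tested.

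The skeletal muscle markers were mixed. The myogenic factors Myod1, Myog and Myf5 and the satellite cell factor Pax7 read between 3.09 and 4.07 in all 11 arrays, and none of the 13 skeletal markers passed among the pluripotent groups in limma, with 2, 2 and 1 at an unadjusted p under 0.05. Mymx, a protein of myoblast fusion, and Actn3, the fast-fibre alpha-actinin, were above both sources in all 9 pluripotent arrays: the means of Mymx were 8.32, 7.80 and 8.36 in ViPSC, TiPSC and ESC against 4.40 in TTF and 4.87 in VM, and those of Actn3 were 6.83, 6.998 and 6.35 against 4.67 and 3.71. They were the 2 of the 13 at least 2 units higher in ViPSC than in VM, and also in TiPSC than in TTF. Ckm, Des and Acta1, which the heart also expresses, were the only ones of the list that exceeded TTF by at least 2 units in VM. The pluripotency regulators Pou5f1, Nanog and Sox2 read 11.92 to 13.15 in the 9 pluripotent arrays and 2.81 to 4.23 in the source arrays. Of 8 pluripotency markers, 7 were at least 2 units higher in ViPSC than in VM, and all 8 in TiPSC than in TTF. The exception in ViPSC was Klf4, with a mean of 11.53 against 10.24 in VM.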

How the data were processed

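RNA of 11 mouse samples was hybridized to Affymetrix Mouse 430 2.0 arrays. The deposited table holds log2 values that the authors made with RMA, per the submitters' processing notes; its version and probe definitions are not given in the sources used here. RMA normalizes between arrays and compresses differences near background, and the arrays' number limits the precision. Among its probe sets 44.5% repeat an identical value in several arrays, and arrays that share a value have no order. The levels at which values repeat were not counted.

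Of 45101 probe sets, 64 controls were left out and 45037 were used; 34945 had 1 symbol in the platform annotation, 932 several and 9160 none. RefSeq gene tables (GRCm38.p6) placed 34741 of them and all 8 members. ViPSC, TiPSC and ESC were compared in 1 fit of 9 arrays with limma 3.58.1 in R 4.3.3 (lmFit, eBayes, two-sided, Benjamini-Hochberg over all probe sets), first tested on simulated data. Comparisons with VM or TTF have no test, and probe sets at least 2 log2 units apart were counted, in all 3 induced arrays where these were used. Alternatives changed the probe sets tested, the arrays, scaling, eBayes setting, array weights, block and chromosome shift.

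The members and the marker lists were chosen with earlier results of these data known. All member probe sets are named; from the lists, those that passed limma, or at most the 4 with the largest difference between VM and TTF, and other list genes were named after their values were seen. Lists use the brightest probe set of a gene. The nearest 3 genes were taken by root mean square difference.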

Additional observations from a re-analysis of the deposited data

Results flagged for a closer look

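For 6 member probe sets, the 3 ViPSC arrays all lay below VM while the 3 TiPSC arrays all lay above TTF. The share of all probe sets with this pattern was not counted, so the count is not read as particular to the members. For Myh6 (1448826_at), Myh7, Myl3 (1427768_s_at) and Myl7, TTF lay below its array median of 4.68, which left TiPSC little room to fall below it. The difference between these changes was not tested, since VM and TTF had 1 array each. The mean changes from the source were -10.75 in ViPSC and 1.20 in TiPSC for Myh6 (1448826_at), -7.27 and 0.30 for Myh7, -8.78 and 0.19 for Myl3 (1427769_x_at), -8.89 and 1.04 for Myl3 (1427768_s_at), -0.35 and 0.068 for Myl4 (1457126_at), and -3.64 and 2.01 for Myl7. The value of Myl4 (1457126_at) was identical in the 3 TiPSC arrays. Myh3 moved alike in both, with all induced arrays above their source.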

How the results depend on the processing

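All counts of members given here are counts of member probe sets. The counts of VM against TTF and of ViPSC against VM stayed within 1.5 times of 10 under every alternative tried (7 to 11, and 7 to 10). In TiPSC against TTF, 2 members were higher with a threshold of 1 log2 unit, and 0 to 1 with an array left out. For ViPSC against TiPSC, the 1 member that passed became 3 with array weights and with only the 6 arrays compared, and 0 to 3 with 1 array left out. Leaving out ESC replicates 2 and 3 together was chosen after seeing the data. For ViPSC against TiPSC it is the same fit as that of only the 6 arrays, since a lone ESC array adds nothing to the spread. In comparisons with ESC it assumes that the lone ESC array varies like the other groups. For ViPSC against ESC, 0 became 3 with array weights, 2 without ESC replicates 2 and 3, and 0 to 2 with 1 array left out. For TiPSC against ESC it was 0 to 2 with 1 array left out. Myl4 (1422580_at) passed in ViPSC against TiPSC under 14 of 17 alternatives (adjusted p from 0.000932 to 0.0543), and Myh3 under 5 of 17. Among these alternatives, the fit of only the 6 arrays and that without ESC replicates 2 and 3 are the same fit, counted separately. The cause of the changes in these counts was not tested.

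Same-numbered arrays' deviations from their group means correlated at -0.26 to 0.07. Differently numbered arrays were not compared, so this check cannot settle whether replicate numbers pair the samples. With the replicate number as a block, Myl4 (1422580_at) still passed (adjusted p = 0.0316), and the member probe sets passing were 1, 0 and 0. Of all probe sets, 977, 104 and 13 passed in place of 1761, 551 and 96. The last counts were 5005, 2579 and 1120 with array weights and 4342, 135 and 5 with only the 6 arrays compared. They ranged over 321 to 3086, 22 to 3765 and 11 to 4326 with 1 array left out. With 1 probe set a gene, 1024 passed in ViPSC against TiPSC.

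Signs turned only for differences that passed in no setting, apart from Myl3 (1427768_s_at) in TiPSC against ESC, which passed without ESC replicate 1. In ViPSC against TiPSC, less the chromosome's shift, Myl4 (1457126_at) gave -0.41 and Myl7 -0.056; with 1 array left out, Mybpc3 ranged from -0.24 to 0.029, Myh6 (1448826_at) from -0.082 to 0.13 and Myl4 (1457126_at) from -0.051 to 0.11. In ViPSC against ESC, arrays centred on expressed probe sets gave -0.0025 for Myl2, -0.011 for Myh6 (1448826_at) and -0.026 for Myl4 (1457126_at). Without ESC replicates 2 and 3, Mybpc3 gave 0.059, Myh6 (1448826_at) -0.0077, Myl7 0.32 and Myl4 (1457126_at) -0.067, and less the chromosome's shift Myh6 (1448826_at) gave -0.012 and Myl4 (1457126_at) -0.35. With 1 array left out, Myl2 ranged from -0.0037 to 0.084, Myh6 (1448826_at) from -0.012 to 0.052 and Myl4 (1457126_at) from -0.073 to 0.084. In TiPSC against ESC, array weights gave 0.041 for Myh6 (1417729_at) and 0.0015 for Myl4 (1457126_at). Without ESC replicates 2 and 3, Mybpc3 gave 0.15, Myh3 0.29, Myl3 -0.26 (1427768_s_at) and -0.21 (1428266_at), and less the chromosome's shift Myh7 gave -0.024 and Myl4 (1457126_at) 0.063. With 1 array left out, Myh6 ranged from -0.081 to 0.055 (1417729_at) and from -0.10 to 0.11 (1448826_at), Myh7 from -0.0066 to 0.12, Myl4 (1457126_at) from -0.052 to 0.018 and Myh3 from -0.93 to 0.053.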
